A study of Mus musculus with 6 samples.

Results

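The 3 Lrig genes (Lrig1, Lrig2, Lrig3), the 4 ErbB receptors (Egfr, Erbb2, Erbb3, Erbb4) and the neuregulins Nrg1 and Nrg3 were followed in the midbrain of Lmx1b mutant and control embryos, as 9 of the 26852 genes measured. They were taken from the gene table by symbol and were chosen with their measured cKO and control values known. Their differences between the groups are therefore given as a description, with no test and no p-value. Lrig1, the known brake on ErbB receptors, and Egfr were lower in all cKO libraries than in all controls, Lrig3 was higher and Lrig2 slightly higher, and the other 5 genes overlapped between the groups. All 9 genes were in the table and passed the minimum mean normalized count of 10 used for the test across genes.

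RNA was taken from midbrains dissected from mouse embryos at E14.5 on a C57Bl/6 background. The conditional knock-out (cKO) libraries come from Lmx1b fl/fl; Pitx3-Cre embryos, in which both Lmx1b alleles are flanked by loxP sites. The control libraries come from Lmx1b wt/wt; Pitx3-Cre littermates, so both groups carry the Cre, which sits in the Pitx3 locus and takes the place of a Pitx3 allele. There are 3 libraries per genotype, each made from 2 pooled embryos, and the embryos came from 4 litters. Cre is made only in Pitx3-expressing neurons, which in the midbrain are the dopaminergic neurons, so the other cells in a cKO library keep the unrecombined alleles. A difference in such a library can be a change of RNA per cell or of the number of cells of a type, and in bulk RNA these cannot be told apart.

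LRIG proteins span the cell membrane and carry leucine-rich repeats and immunoglobulin-like domains on the outside of the cell. LRIG1 binds ErbB receptors and other receptor tyrosine kinases and promotes their ubiquitination and degradation, so it acts as a brake on growth factor signalling, and it marks slowly dividing stem cells in several tissues. ErbB receptors bind ligands of the EGF family and the neuregulins, pair with each other and signal through the Ras-MAPK and PI3K-Akt routes. In the developing brain, EGFR is found on late progenitors and glial precursors, whereas ERBB4 and the neuregulins are best known from migrating and maturing interneurons and ERBB3 from oligodendrocyte precursors and Schwann cells.

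Values are normalized read counts, the reads on a gene divided by a size factor for the depth of the library. The deposited table gives group means only, and the reads of each library were recovered from these means, for 98.1% of the genes. Each recovered library belongs to a genotype but cannot be tied to a sample, and the libraries of a group are called a, b and c by falling size factor. They hold between 20629683 and 25051860 reads on recovered genes. Lmx1b itself had 1257, 1401 and 1455 normalized counts across cKO libraries and 1368, 1352 and 1474 across controls, so its total does not check the labels. Of 9 midbrain markers, 8 had a negative and 1, Otx2, a positive log2 fold change (median -0.16), and En1 and En2 were lower in all cKO libraries than in all controls (2 of 9, or 22.2%, against 7.67% of all genes tested that did not overlap in either direction). The paper reports lower En1 and En2 RNA after Lmx1b loss from this sequencing, and lower En1 also by qPCR in independent samples. Otx2, which marks forebrain and midbrain, lay between 1613 and 1863 in all libraries, whereas the hindbrain Hox genes on the list reached at most 5.31. The epithelial markers Krt5 and Krt14 reached 254 and 95.6 in cKO library a and at most 1.08 elsewhere. The mesenchymal marker Col1a1 reached 6097 in cKO library c and 532 in cKO library a, against 14.8 in cKO library b and at most 11.5 in the controls. Pitx3, which marks the neurons in which Cre is made, stood at 111, 162 and 150 across cKO libraries and at 177, 180 and 198 across controls, without overlap. The paper, in contrast, reports Pitx3 as unaltered in the cKO, from RNA levels that it does not show and from in situ hybridization. The summed counts of each cell type marker list, none of which holds Pitx3, overlapped between the groups, although single genes, En1, En2 and Col1a1 among them, did not.

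Lrig1 (ENSMUSG00000030029) lies on the minus strand of chromosome 6 of the GRCm38 genome build (94604529 to 94700158). The cKO libraries a, b and c held 1647, 1713 and 1876 normalized counts of this gene, and the control libraries 2086, 2209 and 2397. All cKO libraries lay below all control libraries, and the closest pair, cKO c and control a, differed 1.11-fold. The means were 1745 ± 118 and 2231 ± 156 (SD, n = 3), a ratio of 0.782 and a log2 fold change (cKO over control, as estimated by limma) of -0.35 ± 0.072 (standard error, SE). When any library was left out, this value stayed between -0.40 and -0.30, and without both cKO libraries with reads of other tissues (a and c) it was -0.38. Of its 5585 exon bases, 144 (2.58%) overlap Slc25a26 on the opposite strand. That gene had 200, 206 and 248 normalized counts across cKO libraries and 205, 144 and 192 across controls, far fewer than Lrig1.

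Lrig2 (ENSMUSG00000032913, chromosome 3, 104396418 to 104511918, minus strand) encodes a family member that has been linked to ErbB and PDGF receptor signalling. It had 3703, 3700 and 3757 normalized counts across cKO libraries and 3610, 3508 and 3553 across controls. The cKO libraries all lay above the controls, but by a small margin, with a ratio of means of 1.05 and a closest gap of 1.03-fold. Its log2 fold change was 0.06 (SE 0.047). Lrig2 varied least of the 9 genes, with 1.07-fold between the highest and the lowest of the 6 libraries.

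Lrig3 (ENSMUSG00000020105, chromosome 10, 125966168 to 126015359, plus strand) encodes the family member that has been described as opposing LRIG1 at some receptors. It was the least abundant Lrig gene per exon length, with 189, 175 and 258 normalized counts across cKO libraries and 158, 137 and 129 across controls. The cKO libraries again all lay above the controls, with a closest gap of 1.11-fold between cKO b and control a, and cKO c stood above all other libraries. The means were 207 ± 44.0 and 141 ± 15.3 (SD, n = 3), a ratio of 1.47 and a log2 fold change of 0.52 (SE 0.19). Without cKO c, which holds most of the mesenchymal reads, the log2 fold change was 0.36 and the ratio 1.29. In cKO library b alone against the controls, the log2 fold change was 0.31 (SE 0.24) and the ratio 1.24. The mesenchyme and bone markers summed to 2062, 497 and 13832 normalized counts across cKO libraries and to 546, 495 and 583 across controls. The part of these cells in the Lrig3 values was not tested beyond these omissions.

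The upstream sequences of the family members that stood apart most between the groups are given here because these genes lay on opposite sides of the control. They are the 250 bases before the RefSeq start (GRCm38.p6), written 5′ to 3′ along the gene, with each CG dinucleotide in capitals. For Lrig1 they lie at chr6:94700146-94700395 (minus strand), for Lrig3 at chr10:125965969-125966218 (plus strand) and for Egfr, whose counts are given next, at chr11:16751953-16752202 (plus strand).
Lrig1: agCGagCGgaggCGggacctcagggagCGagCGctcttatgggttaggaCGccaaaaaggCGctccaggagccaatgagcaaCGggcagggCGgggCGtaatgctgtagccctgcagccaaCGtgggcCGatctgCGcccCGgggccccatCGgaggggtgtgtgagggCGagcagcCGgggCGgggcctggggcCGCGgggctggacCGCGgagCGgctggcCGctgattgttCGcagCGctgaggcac
Lrig3: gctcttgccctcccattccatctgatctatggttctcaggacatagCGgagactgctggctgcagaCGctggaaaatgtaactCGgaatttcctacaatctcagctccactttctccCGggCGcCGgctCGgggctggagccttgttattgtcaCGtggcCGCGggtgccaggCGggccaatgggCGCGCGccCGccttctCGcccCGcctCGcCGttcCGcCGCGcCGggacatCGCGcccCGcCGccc
Egfr: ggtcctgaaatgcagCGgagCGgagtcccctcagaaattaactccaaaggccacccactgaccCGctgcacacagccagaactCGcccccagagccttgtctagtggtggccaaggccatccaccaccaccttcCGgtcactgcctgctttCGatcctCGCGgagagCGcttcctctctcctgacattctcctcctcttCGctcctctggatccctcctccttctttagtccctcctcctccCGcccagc
The Lrig1 and Lrig3 stretches hold 26 and 27 CG dinucleotides and the Egfr stretch 11, against a median of 6 over the 32851 promoters in the RefSeq table. At least as many as in Lrig1 were present in 9.59% of all promoters, and at least as many as in Egfr in 35.6%. A promoter entry was available for 7 of the 9 genes. The 6 letters TAATTA, a core that many homeodomain proteins read and that is the same on both strands, occurred in none of these 7 windows of 300 bases and in 5.29% of all promoters.

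Egfr (ENSMUSG00000020122, chromosome 11, 16752203 to 16918158, plus strand) encodes the receptor for EGF, TGF alpha and HB-EGF. Its normalized counts were 507, 503 and 596 across cKO libraries and 635, 725 and 662 across controls. All cKO libraries lay below all controls, the closest being cKO c and control a at 1.07-fold. The means of 535 ± 52.8 and 674 ± 46.2 (SD, n = 3) differed by a log2 fold change of -0.34 (SE 0.10), a ratio of 0.794. Leaving out a library moved this value between -0.41 and -0.28, and without both cKO a and c it was -0.42 (SE 0.15). Radial glia, the neural progenitors of the ventricular zone, were followed by 6 recovered markers, of which 4 had a negative and 2 a positive log2 fold change. Their summed normalized counts were 15319, 17793 and 17318 across cKO libraries and 18151, 17062 and 17370 across controls, so the groups overlapped. Slc1a3, a glutamate transporter of radial glia, had 3972, 4093 and 4615 across cKO libraries and 5171, 4404 and 5103 across controls, with a log2 fold change of -0.21. The signalling target Hes5 had a log2 fold change of -0.33 and the transcription factor Pax6 of 0.24. Slc1a3 and Hes5 were the 2 of 6 markers with an unadjusted p-value under 0.05 (33.3%, against 2.79% of all genes tested), and their libraries overlapped between the groups. For Fabp7 and Vim, the other markers on this list, only the authors' means are known, 12594 in the cKO and 13725 in the control for Fabp7 and 10031 and 11056 for Vim. Pitx3, given above, had a log2 fold change of -0.41 (SE 0.18), while Th and Lmx1a, also made by these neurons, had -0.16 and -0.09 with overlapping groups. The part of radial glia or of Pitx3-expressing neurons in the Lrig1 and Egfr values was not tested.

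Erbb2 (ENSMUSG00000062312, chromosome 11, 98412470 to 98437716, plus strand) encodes the receptor with no ligand of its own, which serves as the preferred partner of the others. It had 339, 506 and 402 normalized counts across cKO libraries and 412, 491 and 529 across controls. The groups overlapped, since cKO b lay above controls a and b. The means were 416 ± 84.4 and 477 ± 59.6 (SD, n = 3), with a log2 fold change of -0.21 (SE 0.15). This value moved with single libraries, from -0.06 without cKO a to -0.36 without cKO b and -0.32 without control a, and it was 0.10 without both cKO a and c.

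Erbb3 (ENSMUSG00000018166, chromosome 10, 128567523 to 128589652, minus strand) encodes a neuregulin receptor whose own kinase activity is weak. It was the least abundant of the 9 genes per exon length, with 51, 8 and 29 reads across cKO libraries and 23, 38 and 22 across controls, or 47.8, 8.45 and 31.4 normalized counts against 20.3, 36.5 and 23.8. The cKO libraries held both the highest and the lowest value. The means were 29.2 ± 19.8 and 26.9 ± 8.51 (SD, n = 3), a ratio of 1.09, while limma estimated a log2 fold change of -0.11 (SE 0.56), so at this depth the direction could not be given. Without cKO library b the log2 fold change was 0.59, and without cKO library a it was -0.65. The epithelial markers summed to 540, 52.8 and 79.0 normalized counts across cKO libraries and to 52.2, 55.7 and 63.7 across controls, with cKO library a highest for both these markers and Erbb3. Sox10, which marks oligodendrocyte precursors and Schwann cells, had 133, 61.3 and 114 across cKO libraries and 104, 159 and 121 across controls, with cKO library b lowest for both Sox10 and Erbb3. The Schwann cell gene Cdh19 reached at most 1.08 in any library. The part of epithelial cells or glial precursors in the Erbb3 values was not tested.

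**Figure D1:**
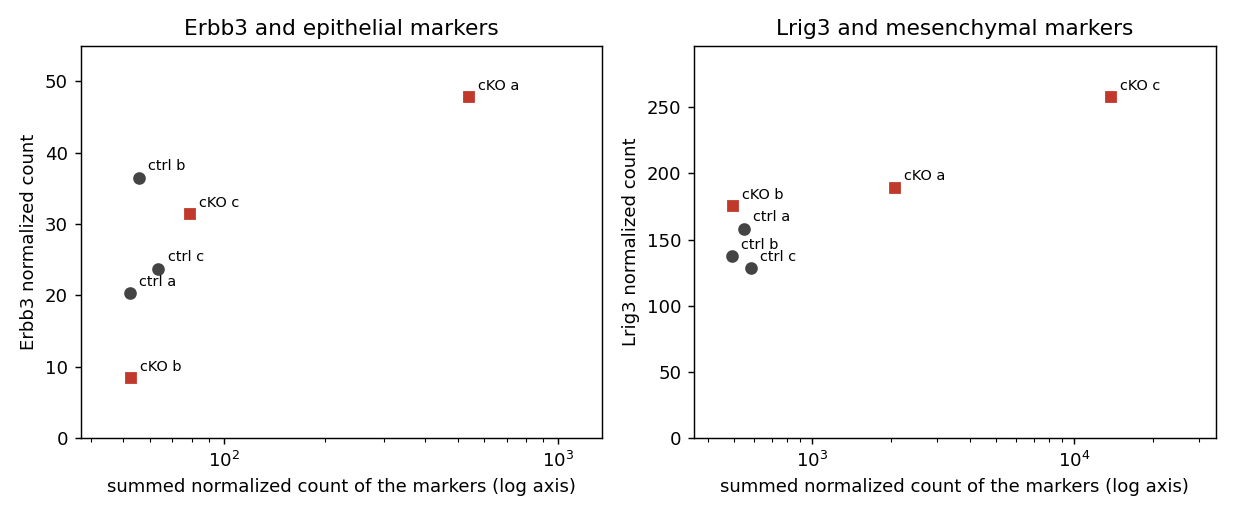
Normalized count of Erbb3 against the summed count of 8 epithelial markers (left) and of Lrig3 against that of 9 mesenchyme and bone markers (right), with the marker sum on a log axis; each point is a library, circles control (ctrl) and squares cKO. The cKO library a, at 540 summed epithelial counts, holds the highest Erbb3 value (47.8), and the cKO library c, at 13832 summed mesenchymal counts, the highest Lrig3 value (258), while cKO b lies within the control range of both marker sums and above the controls for Lrig3.

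Erbb4 (ENSMUSG00000062209, chromosome 1, 68032186 to 69108059, minus strand) encodes the main neuregulin receptor of neurons. It was the most abundant receptor per exon length, with 3444, 3613 and 3782 normalized counts across cKO libraries and 3844, 3484 and 3659 across controls. The groups overlapped, with means of 3613 ± 169 and 3663 ± 180 (SD, n = 3) and a log2 fold change of -0.02 (SE 0.057). Interneurons, the best known site of Erbb4, were followed by 8 GABAergic markers. Of these, 7 had a positive log2 fold change, with summed counts of 20197, 21414 and 20356 in the cKO and 18797, 21120 and 18755 in the control. Dlx1, Dlx5 and Dlx6 had an unadjusted p-value under 0.05 and were higher in the cKO, which is 3 of 8 markers (37.5%, against 2.79% of all genes tested). Gad1, which encodes an enzyme that makes GABA, had a mean of 6328 ± 231 in cKO and 6227 ± 472 in control libraries (SD, n = 3).

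**Figure D2:**
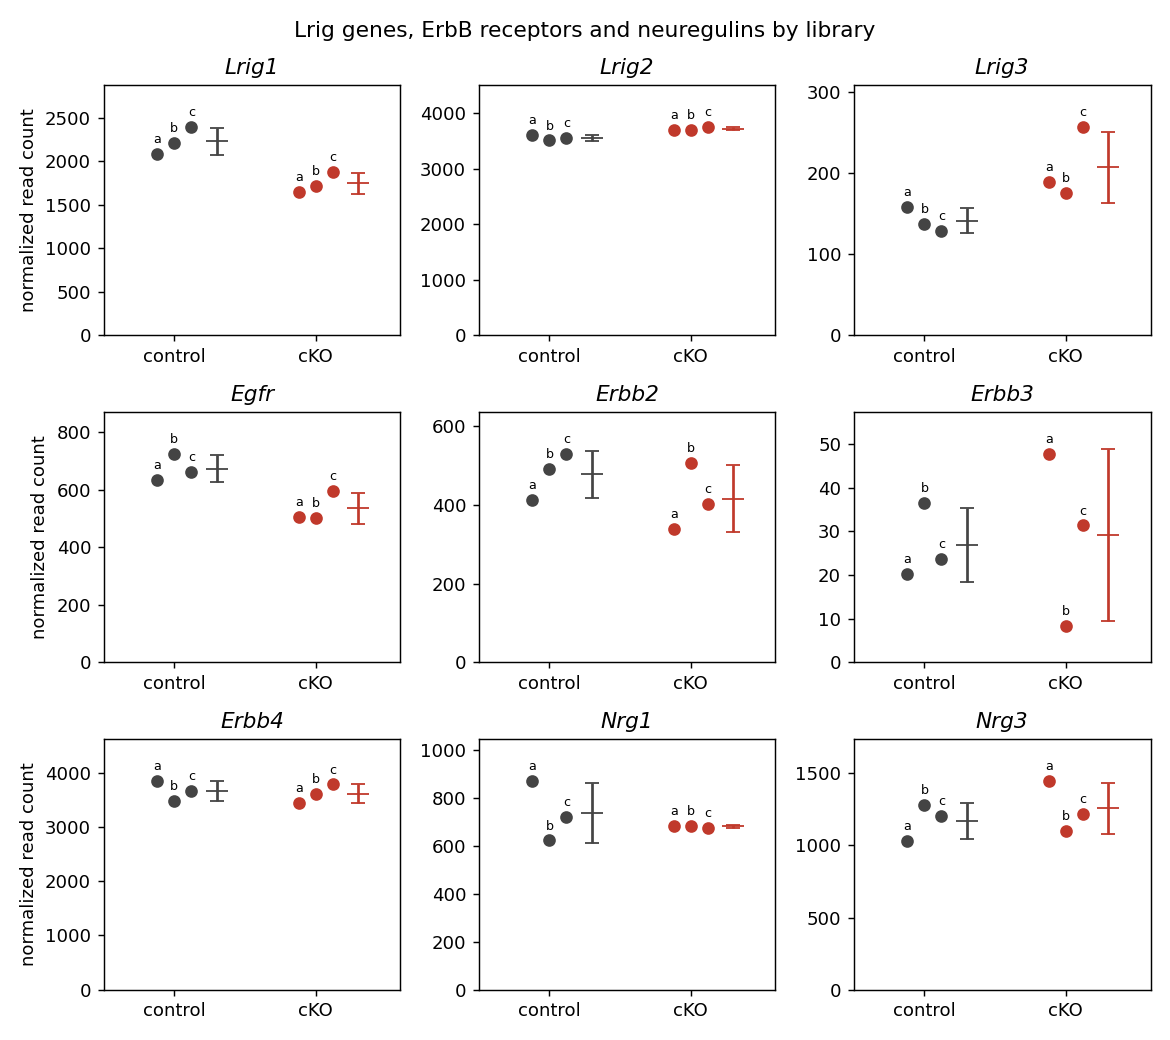
Normalized read counts of the 9 genes in each recovered library, in 1 panel per gene with a vertical axis from 0, for control (grey) and cKO (red) libraries a, b and c; the horizontal line is the mean and the bar the SD of 3 libraries. The cKO points lie wholly below the control points for Lrig1 and Egfr and wholly above them for Lrig2 and Lrig3, and they overlap the control points for the other 5 genes.

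The neuregulins were measured as ligands. Nrg1 (ENSMUSG00000062991, chromosome 8, 31814551 to 32884029, minus strand), a ligand of ERBB3 and ERBB4, had 685, 685 and 674 normalized counts across cKO libraries and 871, 622 and 720 across controls. The cKO libraries were nearly equal and lay inside the control range, with means of 681 ± 6.05 and 738 ± 125 (SD, n = 3) and a log2 fold change of -0.11 (SE 0.12). The log2 fold change was 0.03 without control a, the library with the highest Nrg1 count, and -0.23 without control b, the one with the lowest. Of its exon bases, 482 (4.66%) overlap Gm26578 on the opposite strand, which had between 37.8 and 53.4 normalized counts. Nrg3 (ENSMUSG00000041014, chromosome 14, 38368952 to 39473088, minus strand), a ligand of ERBB4 made mainly in the nervous system, had 1447, 1103 and 1220 across cKO libraries and 1033, 1279 and 1202 across controls. These groups overlapped as well, with a log2 fold change of 0.11 (SE 0.11) that was -0.0038 without cKO library a, 0.20 without cKO library b and 0.02 without control library a.

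Between the groups, 4 of the 9 genes did not overlap, 2 lower (Lrig1, Egfr) and 2 higher (Lrig2, Lrig3) in the cKO. Over the 16680 genes tested, 1279 genes (7.67%) had no overlap between cKO and control libraries, with 632 (3.79%) below and 647 (3.88%) above the control. Since the 9 genes were chosen with this contrast known, nothing can be read from their share. The median log2 fold change was -0.11 over the 9 genes and -9.14e-06 over all genes tested. No gene in the whole table passed limma at an adjusted p-value under 0.05 (0 of 16680, 0%), while 466 (2.79%) had an unadjusted p-value under 0.05, split into 269 (1.61%) with lower and 197 (1.18%) with higher values in the cKO. The signs of the log2 fold changes of Lrig1, Lrig2, Lrig3 and Egfr held in all 12 alternative settings tried, whereas those of Erbb2, Erbb3, Erbb4, Nrg1 and Nrg3 changed in at least 1. For genes without overlap, leaving out libraries or adding a pseudocount cannot turn the sign. Most of these settings were thus no check on Lrig1, Lrig2, Lrig3 and Egfr, and only another scaling of the libraries could have turned their signs.

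Levels can be compared between genes only per length, and normalized counts were divided by the length of the merged exons of each gene in kb. On this scale of level, averaged over the 6 libraries, Lrig1 stood at 356, Lrig2 at 310 and Erbb4 at 294, followed by Nrg3 at 178. Erbb2 stood at 85.7, Nrg1 at 68.6 and Egfr at 53.4 per kb. Lrig3 (20.9) and Erbb3 (4.66) were the lowest. Among neighbours in this order, the ranges over libraries overlapped in at least 1 group for Lrig1 and Lrig2, Lrig2 and Erbb4, Erbb2 and Nrg1, and Nrg1 and Egfr. In both groups they did not overlap for Erbb4 and Nrg3, Nrg3 and Erbb2, Egfr and Lrig3, and Lrig3 and Erbb3. Lrig1 was first in the control, with 399 ± 28.0 per kb against 303 ± 4.33 for Lrig2 (SD, n = 3). In the cKO the order of these 2 genes was turned, with 312 ± 21.1 for Lrig1 and 316 ± 2.72 for Lrig2, and their ranges overlapped. This turn was seen only with merged exon length, as Lrig2 was above Lrig1 in both groups on the other scales. The order depends on the length used, and only 3 of the 9 genes kept their place with coding length or with the longest transcript. On both of these scales Lrig2 came first, at 1140 per kb of coding length against 607 for Lrig1. In all of them Lrig3 was the eighth and Erbb3 the last of the 9 genes.

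**Figure D3:**
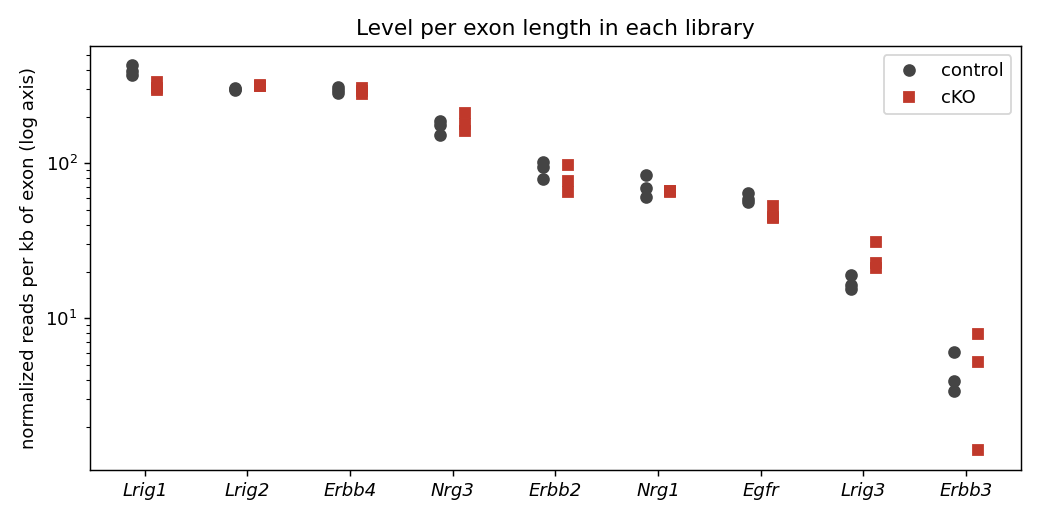
Normalized reads per kb of merged exon length for the 9 genes, ordered by their mean over the 6 libraries on a log axis; circles are control and squares cKO libraries, 1 point per library. Lrig1, Lrig2 and Erbb4 lie together at the top (means of 356, 310 and 294), and Erbb3 lies at the bottom with the widest spread in the cKO.

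Within the Lrig family, Lrig1 made up 46.6, 47.7 and 48.9% of the summed level per kb in cKO libraries a, b and c and 53.4, 55.7 and 57.5% in the controls. The groups did not overlap, with means of 47.8 ± 1.16% and 55.5 ± 2.04% (SD, n = 3). The share of Lrig2 was 48.5 ± 1.68% in cKO and 42.1 ± 1.71% in control libraries, and that of Lrig3 was 3.78 ± 0.637% and 2.36 ± 0.328%. The size of a share also depends on the length, since Lrig1 made up 30.3% in the cKO and 37.0% in the control with coding length and 38.0% and 45.6% with the longest transcript, without overlap of the libraries on either scale. These shares are made from the counts the genes were chosen on and so describe the same difference again. The summed level of the family was 633, 642 and 686 per kb in the cKO and 700, 710 and 747 in the control. These sums did not overlap, but they depend on the length used. With coding length they were 1720, 1735 and 1827 against 1816, 1815 and 1884, and with the longest transcript 901, 911 and 972 against 969, 975 and 1017, so that cKO c lay above control a on both scales. The ratio of Lrig1 to Lrig3, the pair with opposed roles, was 13.0, 14.6 and 10.9 in the cKO and 19.7, 24.0 and 27.9 in the control. With coding length its means were 8.79 and 16.3, and with the longest transcript 6.96 and 13.0.

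Within the ErbB receptors, Erbb4 made up most of the summed level per kb, with 69.0 ± 1.61% in the cKO and 65.6 ± 3.18% in the control (SD, n = 3). The share of Egfr was 11.1 ± 0.878% and 13.2 ± 1.02%, with all cKO libraries below all controls. Erbb2 made up 18.7% and 20.3% and Erbb3 1.17% and 0.990% on average, and both overlapped between the groups. With coding length, Erbb2 (9.40% and 10.2%) made up less than Egfr (12.3% and 14.7%), and Erbb3 made up 0.630% and 0.543%, so the order of Egfr and Erbb2 depends on the length used. The level of Erbb4 was 5.81 to 6.58 times that of Egfr in cKO libraries and 4.40 to 5.55 times in controls. The level of Lrig1 was 6.62 ± 0.266 times Egfr in the cKO and 6.73 ± 0.584 times in the control, with overlapping libraries, and 3.71 and 3.77 times with coding length. Of the summed level of both neuregulins, Nrg3 held 73.5 ± 2.63% in the cKO and 70.6 ± 5.80% in the control.

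**Figure D4:**
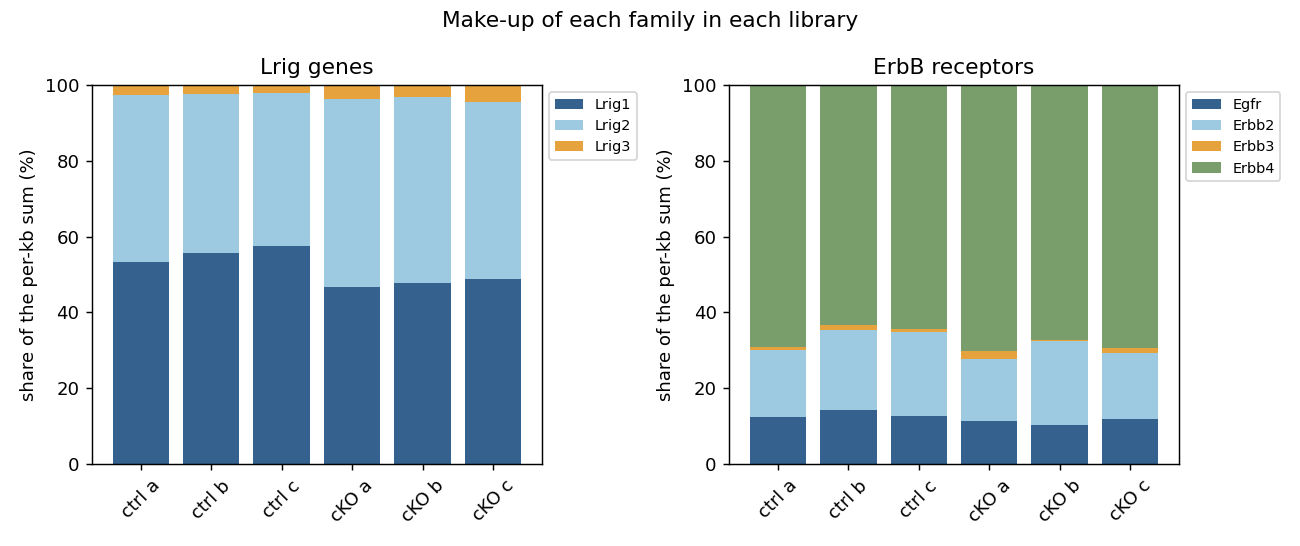
Share of each Lrig gene (left) and of each ErbB receptor (right) in the summed level per kb of merged exon length of its family, in percent, as a stacked bar for each control (ctrl) and cKO library. The Lrig1 part is smaller in all cKO bars (46.6 to 48.9%) than in all control bars (53.4 to 57.5%), and Erbb4 is the largest part of every receptor bar.

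Likeness to Lrig1 was measured by the Pearson correlation of log2(normalized count + 1) over the 6 libraries, among 12447 genes with a mean of at least 100, and is a description over few points that share the genotype. The most like genes were Nfix (r = 0.996), En1 (0.986), Tacc1 (0.977), Myo6 (0.976) and Fstl4 (0.975), and 21 genes lay above 0.95. Nfix, a transcription factor of neural progenitor maturation, had 2337, 2459 and 2644 normalized counts across cKO libraries and 2828, 3059 and 3262 across controls, and En1, a transcription factor of the midbrain, had 940, 1058 and 1147 against 1277, 1326 and 1540. Both had the order of libraries that Lrig1 had. Among the 7 other genes described here that met the minimum, all but Erbb3, Egfr was the most like Lrig1, at r = 0.915 and rank 53. Lrig2 (-0.83) and Lrig3 (-0.69) had the most negative values, and the remaining genes lay between -0.27 and 0.61.

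The surrounding pathway was followed in lists of 89 genes, of which 82 could be tested. None passed the test at an adjusted p-value under 0.05. At an unadjusted p-value under 0.05 there were 3 genes (3.66%, against 2.79% of all genes tested), all lower in the cKO, with the 3 adjusted p-values from limma at 1.00. The libraries did not overlap for 7 genes (8.54%, against 7.67% of all genes), of which Nrg2, Shc3, Akt2, Spry2, Spry4 and Etv4 were lower and Lingo2 was higher in the cKO. The median log2 fold change over the 82 genes was -0.0070, with 42 negative and 40 positive values.

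The list of MAPK feedback and response genes, which respond to or feed back on Ras-MAPK signalling downstream of ErbB and FGF receptors, held 2 of these 3 genes. That is 2 of its 16 genes (12.5%, against 2.79% of all genes tested), and 3 of 16 did not overlap between the groups (18.8%, against 7.67%), which are few genes to set against these shares. Etv4 (chromosome 11, 101769742 to 101785371), an ETS transcription factor that responds to MAPK signalling, had 159, 118 and 134 normalized counts across cKO libraries and 180, 218 and 190 across controls. All cKO libraries were below all controls, and its log2 fold change was -0.51 (SE 0.17, unadjusted p = 0.0129 in limma). Its relative Etv5 (chromosome 16, 22381309 to 22439719) had 468, 337 and 558 across cKO libraries and 628, 541 and 525 across controls, which overlapped (log2 fold change -0.34, SE 0.16, unadjusted p = 0.0474 in limma). That p-value was 0.258 without cKO library b and stayed under 0.05 in 1 of the 6 fits without a library, while that of Etv4 did so in 5. The feedback inhibitors Spry2 and Spry4 had log2 fold changes of -0.18 and -0.29 (unadjusted p = 0.0637 and 0.104 in limma), and neither overlapped between the groups. Over the 16 genes of the list the median was -0.07, with 11 negative and 5 positive values. The most abundant gene of the list per kb, the phosphatase Dusp4 (1827 per kb), had a mean of 4949 ± 501 normalized counts in cKO and 5066 ± 268 in control libraries (SD, n = 3).

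In the PI3K-Akt list, 1 of 9 tested genes had an unadjusted p-value under 0.05 (11.1%, against 2.79% of all genes tested), a count too small to set the list apart. This was the kinase Akt2 (chromosome 7, 27591552 to 27640826), with 1368, 1455 and 1408 normalized counts across cKO libraries and 1586, 1500 and 1631 across controls. Its groups did not overlap (log2 fold change -0.16, SE 0.064, unadjusted p = 0.0322 in limma), but the p-value was under 0.05 in 2 of the 6 fits that left out a library. Among 19 adaptors and Ras-MAPK genes, 0 had an unadjusted p-value under 0.05, and the adaptor Grb2 (1537 per kb) had a log2 fold change of -0.02.

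The other lists held no gene with an unadjusted p-value under 0.05. Of 5 other ErbB ligands tested, Tgfa, a ligand of EGFR, was the most abundant at 117 per kb, with a mean of 786 ± 94.3 normalized counts in cKO and 729 ± 89.2 in control libraries (SD, n = 3). Nrg2, another neuregulin, had 190, 187 and 184 across cKO libraries and 211, 232 and 210 across controls, all cKO libraries below all controls. The 7 ligand processing genes had no group that stood apart, and their most abundant member per kb was the sheddase Adam10 (1034 per kb, log2 fold change 0.02). The 9 other ErbB brakes had a median of 0.01, from -0.12 to 0.14, and the ubiquitin ligase Stub1 was the most abundant (1160 per kb, log2 fold change -0.05). For Stub1, 42.3% of the exon bases overlap Jmjd8 on the opposite strand, and the use of strand in counting is not given. Of the other receptors that LRIG proteins bind, Ret had a mean of 876 ± 66.7 in cKO and 1009 ± 91.7 in control libraries (SD, n = 3), with a log2 fold change of -0.19 and overlapping libraries. Met had 144 ± 15.3 and 134 ± 9.53, and Ntrk2, the most abundant of them at 411 per kb, had 7957 ± 735 and 7884 ± 565. The 14 tested relatives with the same domain types, led among the recovered genes by Lrrc4b (3250 per kb), had a median of -0.01.

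**Figure D5:**
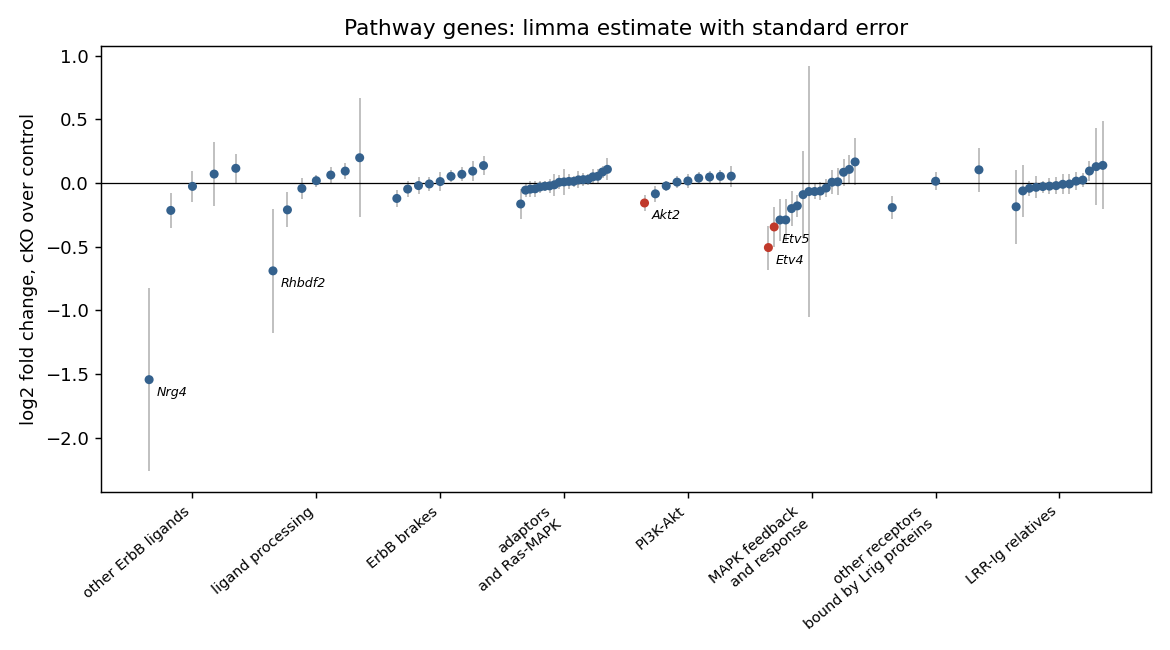
Log2 fold change (cKO over control) of the 82 tested pathway genes by list, as estimated by limma, with 1 standard error to each side; red points are the 3 genes with an unadjusted p-value under 0.05. The 3 red points (Etv4, Etv5 and Akt2) lie below 0, as do the estimates of the scarce genes Nrg4 and Rhbdf2, which have wide errors.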

How the data were processed

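RNA of E14.5 midbrain was sequenced in 6 libraries, 3 cKO and 3 control. Per the labels, the submitters' processing notes name TopHat 1.0.14, Bowtie2 2.1.0, HTSeq 0.6.1p1, DESeq 1.10.1 and GRCm38.p4. The use of strand in counting is not given in the sources used here. The authors deposited a table with the mean normalized count signal of all libraries and of each group, that is, read counts divided by a size factor per library. It also holds their ratios, log2 ratios, p-values and adjusted p-values, which were not used. Its 3 lines that name no gene, with 31.8% of the mean counts, were left out.

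Whole reads per library were searched for that give both printed means, up to a sum of 30000 reads in a group. A single answer was found for 26355 genes, 497 lay above this limit, and 3 of 1000 decoy values had an answer. In a test on simulated data, 3000 of 3000 genes were recovered. Size factors recomputed from the recovered reads differed by at most 0.124%. The p-values measure only the spread between these libraries.

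The recovered counts, with a minimum of 10 for the mean normalized count, went into limma 3.58.1 (voom weights, R 4.3.3, genotype as the only term, Benjamini-Hochberg over 16680 genes), after a check on simulated data. Alternatives were limma-trend, scaling by total reads, quantile normalization, minima of 50 and of none, pseudocounts of 1 and 10, other lengths and each library left out. Leaving out cKO a and c together was chosen after seeing the data. Exons were taken from GENCODE M21, matched for 26703 genes, and promoters from RefSeq. The 9 genes and all lists were chosen with earlier results of these data known. Named genes are these 9, Lmx1b, pathway genes with an unadjusted p-value under 0.05, the most abundant per kb of each list (1 of them is not reported here), the 5 most like Lrig1 and markers that give a range; others were named after their values were seen.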

Additional observations from a re-analysis of the deposited data

How the results depend on the processing

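The log2 fold changes of Lrig1, Lrig2, Lrig3 and Egfr kept their sign under all 12 alternatives. Their libraries did not overlap between the groups, so only another scaling could have turned these signs, and leaving out libraries could not. Without both cKO libraries a and c, Erbb2 moved to 0.10, Erbb3 to -1.56 and Nrg3 to -0.08, and the remaining cKO library is then assumed to vary like the controls. For the whole table, 971 genes had an unadjusted p-value under 0.05 with no minimum count, as more genes were tested, and 333 (without control c) to 635 (without control a) with a library left out. With total reads as the scaling, 289 were lower and 184 higher, and with limma-trend 477 had such a p-value. In limma, 0 to 4 genes passed the adjusted threshold of 0.05 with a library left out, and the 4 genes, without control a, were Ddx3y, Kdm5d, Uty and Gm11702. The 3 pathway genes with an unadjusted p-value under 0.05 became 1 to 6 with a library left out, with 6 without control a, 5 without control b and 1 without control c, and those lower in the cKO became 1 to 4, with 1 without cKO b or control c. The causes were not tested. The p-values of Akt2, Etv4 and Etv5 rose above 0.05 in 14 alternatives in all, with their direction kept. Of the 9 genes, 3 kept their place in the order of levels with coding length and 3 with the longest transcript. No paired analysis was possible because the recovered libraries carry no sample number. The table's column names number the libraries from 1 to 3 in both groups, but the deposited means do not show which library has which number. Depth limits Erbb3 most, with 8 to 51 reads per library.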

Other observations

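Of the ErbB ligands that were too scarce to test, Areg reached at most 2.88 and Btc at most 4.68 normalized counts in any library. Epgn had 15.2 in cKO library c and at most 2.16 in the other libraries. Nrg4, which was tested, lay between 1.06 and 17.3. For 3 genes of the pathway lists, the reads of each library were not recovered and only the authors' means are known. For Akt1 the authors' mean was 10020 in the cKO and 9753 in the control, for Pik3r3 it was 10897 and 10452, and for Islr2 it was 18287 and 16823.

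Gm26578, which overlaps Nrg1 on the opposite strand, had 53.4, 52.8 and 52.0 normalized counts across cKO libraries and 41.6, 41.3 and 37.8 across controls, so the groups did not overlap. Of the 8 GABAergic markers, Dlx1 and Dlx6, transcription factors of GABAergic neurons, were higher in all cKO libraries than in all controls (2 of 8, against 7.67% of all genes tested that did not overlap in either direction). They were named after their values were seen, and the other 6 markers overlapped, among them Gad2 with a log2 fold change of 0.08 and Slc32a1 with -0.03. Dlx6 had 334, 431 and 363 normalized counts across cKO libraries and 207, 293 and 245 across controls, and Dlx1 had 1481, 2078 and 1651 against 1450, 1393 and 1141.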
